A study of Homo sapiens with 6 samples.

Results

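The genes described here are those for the proteins of the cytosolic ribosome. They were taken from the count table by symbol, as the RPL and RPS genes whose names end in a number or a number with A or X, the P stalk genes RPLP0, RPLP1 and RPLP2, and RPSA, without RPS27A, and this gave 76 of 34811 genes, 30 of the small and 46 of the large subunit. OVCAR-3 is an established human ovarian carcinoma cell line, and RNA-seq was performed on 3 libraries of OV3/SCR cells, which carry a scrambled shRNA in the pRS HuSH-29 plasmid, and 3 of OV3/COX1KD cells, which carry an shRNA against COX-1, the cyclooxygenase encoded by PTGS1. Both lines were made from the same parental cells, were selected with puromycin and were grown in the same serum-containing medium, and the question was which transcripts differed when COX-1 was reduced. Each line is 1 stable clone, so an effect of the knockdown and a difference between clones cannot be told apart, and the 3 libraries of a line are independently harvested populations of that clone whose spread is all that the p-values measure.

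Library totals were between 25291505 and 27391538 counts, and all 76 ribosomal protein genes were among the 17309 genes that passed the filter on low counts. A count of 3, taken as the smallest detectable level, was worth between 0.113 and 0.120 CPM (the count relative to the library total, after edgeR's TMM correction for library composition), a floor that covers counting error only because PCR copies are not independent molecules. PTGS1 had 713, 658 and 641 counts in OV3/SCR and 456, 486 and 501 in OV3/COX1KD, a log2 fold change of -0.45 (SE 0.0570, edgeR FDR 1.3e-06). The 8 markers of the line, among them PAX8, WT1, MUC16 and EPCAM, were detected in every library. Their levels differed between the lines at an edgeR FDR under 0.01. In OV3/COX1KD 6 were higher, against 25.8% of all tested genes, and 2 lower, against 22.1%. The log2 fold change was 1.36 for MUC16, 0.41 for WT1, 0.40 for EPCAM and -0.76 for PAX8. Markers of leukocytes were near the floor, with 2 to 8 counts of PTPRC and 1 to 14 of CD3E. Of the endothelial and fibroblast markers COL1A1 had the most counts, 258 to 270 in OV3/SCR and 143 to 160 in OV3/COX1KD. In bulk RNA a change in the number of cells of a type and a change in RNA per cell cannot be told apart.

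The ribosome is built from a small subunit, which holds the mRNA and reads its codons, and a large subunit, which joins amino acids and carries the P stalk that recruits elongation factors. Its proteins are needed in matched numbers, and their mRNAs share a run of pyrimidines directly at the 5′ end, the terminal oligopyrimidine or TOP motif, through which mTOR and the RNA-binding protein LARP1 control their translation and stability. Ribosomal protein genes are also copied across the genome as processed pseudogenes, so reads from them are hard to place.

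The start sites of 9 genes are shown because they span the responses described below. RPL13A and RPL7A were among the largest rises, RPS3 and RPLP0 were abundant genes that rose, RPLP2 and RPS21 were among the smallest rises, RPS27 and RPS26 fell, and RPL22 rose while its paralogue fell. Each sequence is RefSeq's on GRCh38.p14, 5′ to 3′ on the gene's own strand, with 20 bases before the annotated start and 10 from it on. Capitals mark the unbroken run of C and T that contains the first transcribed base, and a run may go on beyond the window.
RPL13A, chr19:49487588-49487617, plus strand: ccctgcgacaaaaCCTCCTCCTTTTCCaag
RPL7A, chr9:133348198-133348227, plus strand: attacccacaaTTCCCTTTCCTTTCTCTCT
RPS3, chr11:75399498-75399527, plus strand: cttccgcccgcgagccaCTTCCTTTCCTTT
RPLP0, chr12:120201102-120201131, minus strand: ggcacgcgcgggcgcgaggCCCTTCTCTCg
RPLP2, chr11:809947-809976, plus strand: gcctcttgcgtcggcgCCTTCCTTTTCCTC
RPS21, chr20:62387083-62387112, plus strand: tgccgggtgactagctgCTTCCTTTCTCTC
RPS27, chr1:153990742-153990771, plus strand: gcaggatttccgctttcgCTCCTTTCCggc
RPS26, chr12:56041898-56041927, plus strand: gctgggagacacataacctcgattttcttc
RPL22, chr1:6199586-6199615, minus strand: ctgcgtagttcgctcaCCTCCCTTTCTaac

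Of the 76 genes, 61 matched the RefSeq promoter table by symbol, with 74 listed starts. A pyrimidine run of at least 5 bases covering the annotated start was found at 49 of those 74 starts (66.2%), against 9.60% of 35116 listed human starts. Counted by gene, 48 of 61 ribosomal protein genes (78.7%) and 11.9% of 27305 genes had such a start. RPS27 had a run of 9 bases at its listed start and RPS26 had none there, so the annotated sequence did not set these genes apart together. The 48 genes with a run were at a median log2 fold change of 0.41 and the 13 without one at 0.44, values given as a description. Over the longer window from 250 bases before to 50 after the start, the letters CCGGAAG were present on either strand at 33.8% of the ribosomal protein starts and 10.3% of all starts, and AAGATGG at 10.8% and 5.84%, where a match to the first may overlap the second by its last 3 letters.

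Ribosomal protein transcripts were more abundant in OV3/COX1KD cells. Of the 76 genes, 72 rose at an edgeR FDR under 0.01, where 25.8% of the 17309 tested genes did. RPS27 and RPS26 fell, where 22.1% of tested genes did, and 2 genes, RPL17 among them, did not pass the test. The median log2 fold change of the 76 genes was 0.44, or 1.36-fold, and that of all tested genes was -0.0087. In each of the 72 genes that rose, every OV3/COX1KD library lay above every OV3/SCR library, an ordering seen in 32.5% of tested genes, and in RPS27 and RPS26 every one lay below, as in 30.7%.

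The rise was moderate in size. A log2 fold change above 0.5 at the same FDR was reached by 26 genes, against 9.87% of tested genes, and none changed more than 2.5-fold, as 3.92% of tested genes did. The log2 fold change was 0.20 at the 10th percentile of the ribosomal protein genes and 0.63 at the 90th, with an SD across genes of 0.19 and a median standard error of 0.028. With library totals in place of TMM factors 70 rose, 14 of them by more than 0.5, and among all tested genes 3466 were higher and 4978 lower in place of 4473 and 3820. Among 1866 other genes as abundant as these (at least 110.3 CPM, the 5th percentile of the ribosomal protein genes in OV3/SCR), 41.4% rose and 31.0% fell with a median of 0.039.

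**Figure D1:**
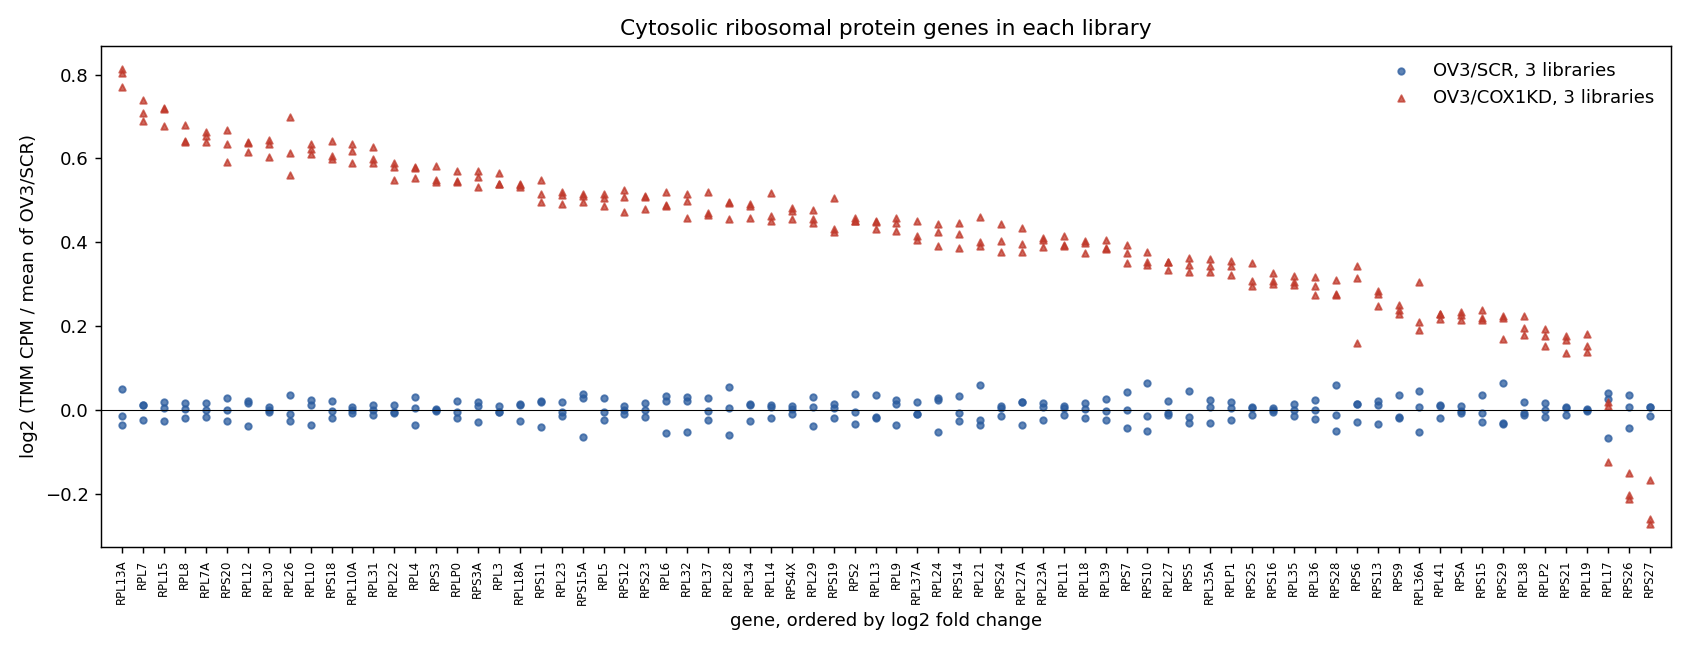
Level of 74 of the 76 ribosomal protein genes in each library, as log2 of its TMM CPM over the OV3/SCR mean of log2 values, ordered by log2 fold change from left to right. The OV3/COX1KD triangles lie above the OV3/SCR circles from RPL13A (0.80) to RPL19 (0.16), mix with them in RPL17, and lie below them in RPS26 and RPS27.

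As a share of all gene counts, the 76 genes took 4.63%, 4.49% and 4.54% in OV3/SCR and 5.86%, 5.96% and 5.90% in OV3/COX1KD. The groups did not overlap, and the mean went from 4.55% ± 0.0707 to 5.91% ± 0.0535 (SD, n = 3). Small subunit genes went from 2.30% to 2.90% and large subunit genes from 2.26% to 3.01%, so that the small subunit's part of these counts was 50.4% to 50.5% in OV3/SCR and 48.9% to 49.1% in OV3/COX1KD. The 13 mitochondrially encoded transcripts moved the other way over the same libraries, from 7.38% ± 0.490 to 6.04% ± 0.583, and their part in the share of the ribosomal protein genes was not tested. The median gene of the set stood 0.014, -0.016 and 0.0040 from the OV3/SCR mean on the log2 scale in OV3/SCR and 0.44, 0.45 and 0.44 above it in OV3/COX1KD, so the 3 libraries of a line were alike.

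**Figure D2:**
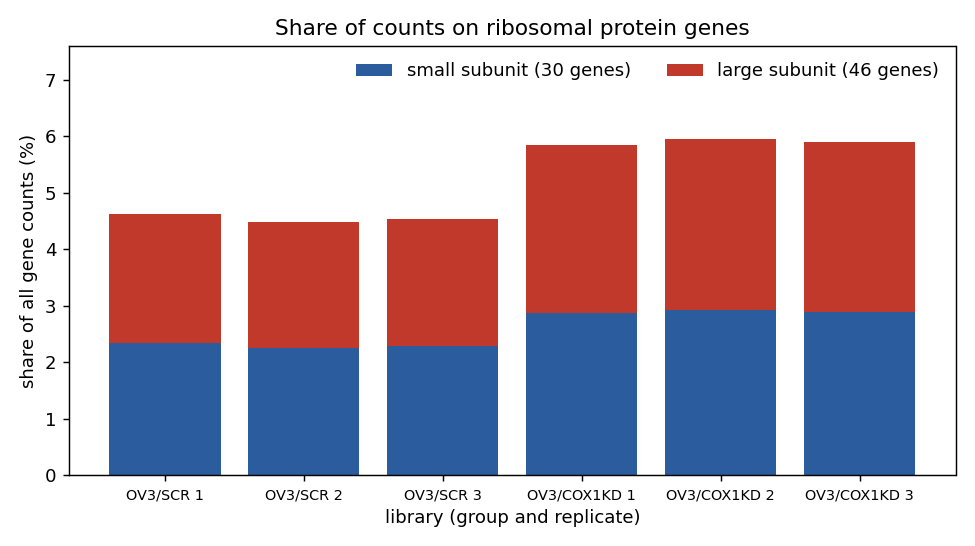
Percent of all gene counts assigned to the 30 small subunit genes (lower part of each bar) and the 46 large subunit genes (upper part) in each library. Each OV3/COX1KD bar ends between 5.86% and 5.96%, above the OV3/SCR bars at 4.49% to 4.63%, and the large subunit part is the larger one only in OV3/COX1KD.

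In the large subunit 45 of 46 genes rose, none fell, and 18 rose by more than 0.5, with a median of 0.48. RPL13A, which besides its place in the ribosome belongs to an interferon-induced complex that silences inflammatory mRNAs, had 15731, 14718 and 14390 counts in OV3/SCR and 25055, 24376 and 26713 in OV3/COX1KD. The groups were far apart, and the log2 fold change of 0.80 was the largest of the 76 (SE 0.0295, edgeR FDR 1.8e-14), or 1.74-fold from 571 ± 17.5 to 990.3 ± 15.6 CPM (SD, n = 3). It lies on chromosome 19 of GRCh37, plus strand, from 49990767 to 49996314, among neighbours within 2 Mb whose median log2 fold change was -0.039.

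RPL7, a large subunit protein whose gene lies on chromosome 8, had 9947, 9491 and 9659 counts in OV3/SCR and 15016, 15158 and 16460 in OV3/COX1KD (log2 fold change 0.71, SE 0.0283, edgeR FDR 5.1e-14). RPL15, which is needed to process the precursor of the large subunit RNAs, had 12636, 11970 and 12129 counts in OV3/SCR and 19377, 18726 and 20480 in OV3/COX1KD (0.70, SE 0.0281, edgeR FDR 5.2e-14). In both genes the lowest OV3/COX1KD library was well above the highest OV3/SCR library. RPL8, which lies close to the peptidyl transferase centre where peptide bonds form, had 43988, 41941 and 42244 counts in OV3/SCR and 64064, 65441 and 67670 in OV3/COX1KD (0.65, SE 0.0265, edgeR FDR 6.5e-14). RPL7A had 24356, 23259 and 23327 counts in OV3/SCR and 35762, 35809 and 37434 in OV3/COX1KD (0.65, SE 0.0265, edgeR FDR 7.0e-14). These 5 genes were the largest rises of the large subunit, and RPL8 was the most abundant of them.

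The P stalk, where elongation factors dock, rose unevenly. RPLP0, its base, had 14429, 13719 and 13743 counts in OV3/SCR and 19599, 19467 and 21097 in OV3/COX1KD (0.55, SE 0.0273, edgeR FDR 1.3e-12). RPLP1, 1 of the acidic proteins that bind this base in pairs, had 29731, 29952 and 29390 counts in OV3/SCR and 35658, 36365 and 38346 in OV3/COX1KD (0.34, SE 0.0268, edgeR FDR 1.5e-09). RPLP2, its partner, had 19835, 19818 and 19461 counts in OV3/SCR and 21046, 21557 and 22665 in OV3/COX1KD (0.17, SE 0.0271, edgeR FDR 1.6e-05). No library of one group entered the range of the other in any of the 3 genes, while the rise of RPLP2 was 1.13-fold against 1.47-fold for RPLP0. The difference between these rises was not tested.

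RPL19 and RPL38 were the other large subunit genes among the 6 smallest rises. RPL19 had 13413, 13076 and 12996 counts in OV3/SCR and 14054, 14271 and 14743 in OV3/COX1KD (0.16, SE 0.0272, edgeR FDR 5.6e-05), and with library totals for scaling its log2 fold change of 0.079 no longer passed (edgeR FDR 0.0205). RPL38, which in mouse embryos is needed for the translation of Hox mRNAs, had 6054, 6047 and 5883 counts in OV3/SCR and 6525, 6699 and 6984 in OV3/COX1KD (0.20, SE 0.0289, edgeR FDR 6.7e-06). Some genes were added for their known roles after their values were seen. RPL5 and RPL11, which travel with the smallest ribosomal RNA and can bind MDM2, the inhibitor of p53, rose by 0.50 and 0.40, and RPL3 and RPL4, early-binding proteins of the large subunit core, rose by 0.55 and 0.57. RPL10, which joins the subunit last and closes its catalytic site, rose by 0.62.

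In the small subunit 27 of 30 genes rose, RPS26 and RPS27 fell, and 8 rose by more than 0.5, with a median of 0.36. Every gene that rose was separated from OV3/SCR in every library. The small rises were RPS21, RPS29 and RPS15. RPS21 had 13370, 12903 and 12942 counts in OV3/SCR and 14106, 13748 and 15032 in OV3/COX1KD (0.16, SE 0.0274, edgeR FDR 4.8e-05), and it too did not pass with library totals (0.082, edgeR FDR 0.0161). RPS29, a zinc-binding protein of the head of the subunit, had 6514, 5950 and 5917 counts in OV3/SCR and 6612, 6846 and 7253 in OV3/COX1KD (0.20, SE 0.0326, edgeR FDR 2.2e-05). RPS15, which is needed for nuclear export of the small subunit, had 3249, 3274 and 3108 counts in OV3/SCR and 3579, 3621 and 3801 in OV3/COX1KD (0.22, SE 0.0318, edgeR FDR 5.5e-06).

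Other small subunit genes were added for their known roles after their values were seen. RPS6, the substrate of the S6 kinases below mTOR, had 42777, 40605 and 41522 counts in OV3/SCR and 49780, 50561 and 47322 in OV3/COX1KD, and its OV3/COX1KD replicate 3 was low beside replicates 1 and 2 (0.28, SE 0.0371, edgeR FDR 2.8e-06). RPS19, the gene most often mutated in Diamond-Blackfan anaemia, rose by 0.45, and RPS14, whose loss marks the myelodysplastic syndrome with a deletion on chromosome 5, rose by 0.42. RPSA, also known as the laminin receptor precursor, rose by 0.23.

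RPS27, RPS26 and RPL17 were among the exceptions to the rise. RPS27 (ENSG00000177954, chromosome 1 of GRCh37, plus strand, 153963238 to 153964631) encodes a zinc finger protein on the solvent side of the small subunit. It had 6449, 6208 and 6259 counts in OV3/SCR and 5058, 4995 and 5714 in OV3/COX1KD, so the groups did not overlap. Its level went from 241 ± 2.19 to 205 ± 8.31 CPM (SD, n = 3), a log2 fold change of -0.23 (SE 0.0323, edgeR FDR 4.2e-06). Its log2 fold change was between -0.31 and -0.21 in the 16 other settings tried. Of the 50-base windows of its transcript, 95.0% also occur elsewhere in GRCh37, so reads from it and from its copies may be hard to separate, and the part of this in the fall was not tested.

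RPS26 (ENSG00000197728, chromosome 12, plus strand, 56435135 to 56438481) encodes a protein at the mRNA exit channel that touches the mRNA upstream of the start codon. It had 3820, 3536 and 3631 counts in OV3/SCR and 3035, 3043 and 3358 in OV3/COX1KD, again without overlap. Its level went from 139.8 ± 3.84 to 123 ± 2.93 CPM, a log2 fold change of -0.19 (SE 0.0336, edgeR FDR 7.6e-05), and it was between -0.27 and -0.17 in the 16 other settings. Of its 50-base windows 68.8% occur elsewhere. Neither gene shares exon sequence with another annotated gene. Of 70 genes within 2 Mb of RPS27, 28 were lower and 21 higher, and their median log2 fold change was -0.055. Of 80 around RPS26, 19 were lower and 30 higher, and their median was 0.047. Of all tested genes 22.1% were lower and 25.8% higher, shares that include genes of low level, which the neighbours leave out. The part of the neighbourhood in either fall was not tested.

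RPL17 (ENSG00000265681, chromosome 18, minus strand, 47014823 to 47018878), a protein near the exit of the peptide tunnel, had 651, 686 and 674 counts in OV3/SCR and 591, 646 and 691 in OV3/COX1KD. The groups overlapped, with a log2 fold change of -0.030 (SE 0.0568, edgeR FDR 0.671). Its exons are covered to 96.9% by the readthrough gene RPL17-C18orf32 and 88.0% of its 50-base windows occur elsewhere, and how reads shared with that gene were counted is not given in the sources used here.

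RPL36A, which has the near-identical partner RPL36AL, had 4027, 3678 and 3807 counts in OV3/SCR and 4206, 4532 and 4515 in OV3/COX1KD (0.24, SE 0.0362, edgeR FDR 1.4e-05), while RPL36AL itself, with 4584, 4528 and 4381 in OV3/SCR and 4459, 4485 and 4851 in OV3/COX1KD, did not pass (0.063, edgeR FDR 0.0786).

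**Figure D3:**
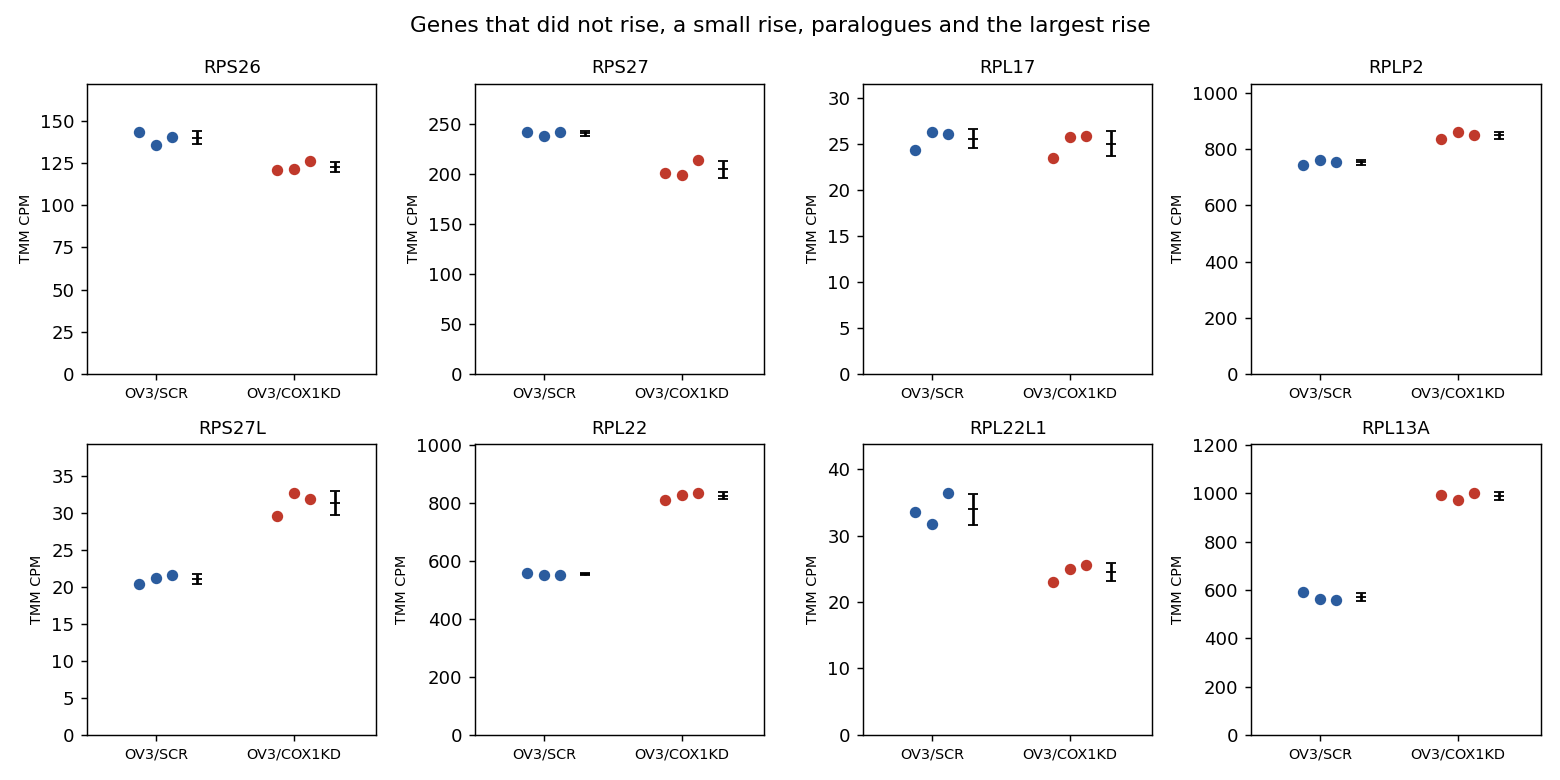
TMM CPM of RPS26, RPS27, RPL17 and RPLP2 (upper row) and of RPS27L, RPL22, RPL22L1 and RPL13A (lower row), with a point for each library and a bar for mean and SD (n = 3). The OV3/COX1KD points of RPS26, RPS27 and RPL22L1 lie below and those of RPLP2, RPS27L, RPL22 and RPL13A above the OV3/SCR points, while RPL17 overlaps.

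Levels per kilobase of transcript differed widely between genes whose products are needed in matched numbers. RPS16, which reaches the P site with its tail, was highest in OV3/SCR at 6693 ± 20.9 CPM per kb and was 8307 ± 80.2 in OV3/COX1KD (SD, n = 3). RPS3, which lines the mRNA entry channel and also acts in DNA repair, followed at 4987 ± 7.85 and 7341 ± 108. RPS2, also at the mRNA entry, stood at 2482 ± 63.9 and 3398 ± 10.4. Together these 3 genes held 1.12% of all counts in OV3/SCR and 1.44% in OV3/COX1KD. RPS24, another gene of Diamond-Blackfan anaemia, had 1878 ± 15.9 and 2491 ± 58.0 CPM per kb, and RPL8 had 1690 ± 21.2 and 2659 ± 41.2. All 5 rose, by 0.31 for RPS16, 0.56 for RPS3, 0.45 for RPS2, 0.41 for RPS24 and 0.65 for RPL8.

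Among the lowest levels were RPL17 at 41.7 ± 1.68 CPM per kb in OV3/SCR, RPL14 at 44.1 ± 0.528, RPS28 at 55.2 ± 2.15 and RPS23 at 74.1 ± 0.843. These values rest on the annotated length, and the transcript used for RPL14 is 7072 bases long, that for RPS23 3142 and that for RPS28 1330. They also rest on where reads were placed. Other genes cover 96.9% of the exons of RPL17 and 27.4% of those of RPS28, and 88.0% of the 50-base windows of RPL17 occur elsewhere. The part of annotation and read placement in the range of levels was not tested. Both rose all the same, RPL14 by 0.48 and RPS23 by 0.50, and RPS28 by 0.29. The order of levels per kilobase was nearly the same in the 2 lines, with Spearman's rho 0.978 and Pearson's r 0.994 of log2 levels across the 76 genes, which share libraries and annotation and are not independent replicates. Across the same genes the log2 fold change had Pearson's r 0.33 with log2 CPM in OV3/SCR, 0.31 with log2 transcript length and -0.014 with GC content.

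**Figure D4:**
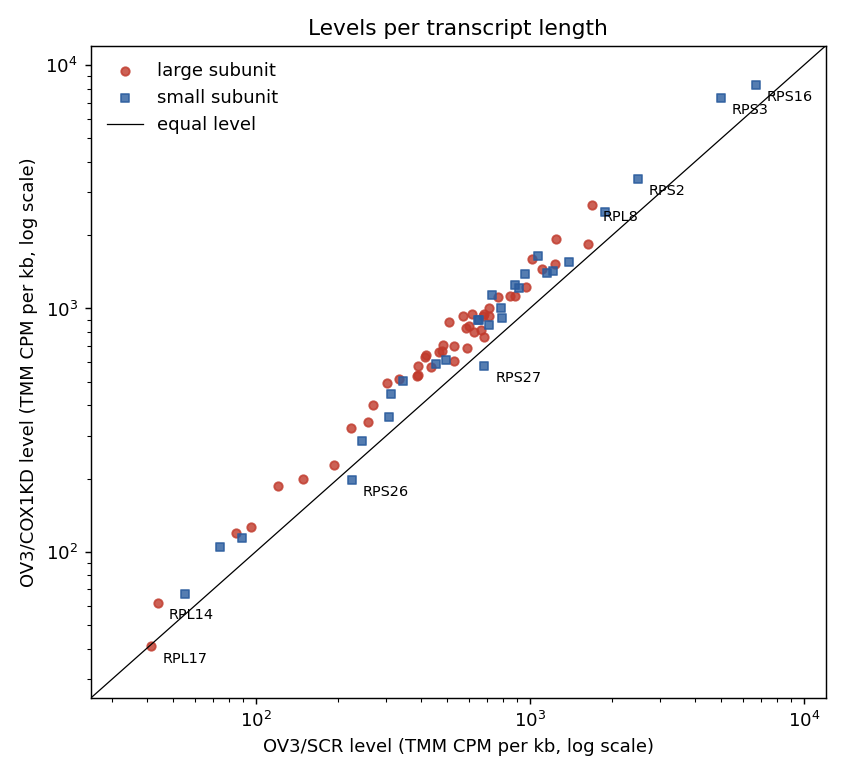
Mean level of 74 of the 76 ribosomal protein genes in OV3/SCR (horizontal) and OV3/COX1KD (vertical), in TMM CPM per kb of transcript on log axes, with a line of equal level. Most genes lie just above the line from RPL14 (44.1 in OV3/SCR) to RPS16 (6693), while RPS26, RPS27 and RPL17 lie below it.

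The rise was also present in genes with little repeated sequence. Of the 16 genes with under 10% of their 50-base windows elsewhere in the genome all rose, with a median of 0.37, and of the 27 with over 50% elsewhere 23 rose and RPS27 and RPS26 fell, with a median of 0.42. Among the 57 genes that share no exon sequence with another gene, 55 rose. The table held 310 pseudogenes named after a ribosomal protein gene, of which 59 passed the filter. These 310 together had 0.325 counts per 100 ribosomal protein counts in OV3/SCR and 0.262 in OV3/COX1KD, a ratio weighted by the pseudogenes with most counts. Gene by gene, 52 of the 59 had a positive log2 fold change, as did 8497 of the 17309 tested genes. The median of the 59 was 0.49. Of the 59, 6 passed the test as higher (10.2%, against 25.8% of all tested genes), RPS2P48, RPL10P3, RPL13AP5, RPLP0P6, RPL13P12 and RPL5P29. RPL32P3 was lower (1.69%, against 22.1%). Low counts limit such calls, and RPL13AP7, with the largest log2 fold change (1.25) and 4 to 25 counts per library, did not pass. RPL32P3 had the most counts of the 59, with 1399, 1390 and 1448 in OV3/SCR and 994, 1118 and 1071 in OV3/COX1KD (-0.38). Reads of these pseudogenes and of their parent genes could have been exchanged.

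The 4 genes on chromosome 8 had the highest median of any group described, 0.64. RPL7 and RPL8 are given above, RPL30 rose by 0.63 and RPS20 by 0.63. The median log2 fold change of genes within 2 Mb was 0.56 around RPL30, 0.28 around RPS20, 0.19 around RPL8 and 0.16 around RPL7. Around RPL30, 14 of 18 neighbours were higher and 2 lower, and around RPS20, 6 of 11 and 2. Around RPL8, 37 of 70 were higher and 11 lower, and around RPL7, 6 of 11 and 1. Of all tested genes 25.8% were higher, and of the 1866 abundant other genes described above 41.4% were. The neighbours leave out genes of low level, which can rarely be called, so their shares are not directly comparable with the 25.8%. The median of the neighbours was positive around all 4 genes, and the part of this in their rises was not tested. Without the 4 genes 68 of 72 rose, with a median of 0.42. Over the 75 genes with neighbours, the log2 fold change and the median of the neighbours had Pearson's r 0.22 and Spearman's rho 0.19.

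Ribosomal proteins that the choice by symbol left out moved in the same direction. RPS27A, made as a fusion with ubiquitin, had 11558, 11100 and 11362 counts in OV3/SCR and 13071, 13357 and 14367 in OV3/COX1KD (0.29, SE 0.0284, edgeR FDR 3.2e-08). GNB2L1, whose product is the scaffold protein RACK1 of the small subunit, rose by 0.55 and FAU, another ubiquitin-like fusion, by 0.15. These were 3 of the 4 genes of this list that were tested, where 25.8% of all tested genes rose. The paralogues of ribosomal proteins moved in both directions. Of 8 tested, RPS27L, RPL39L and RSL24D1 rose, where 25.8% of all tested genes did. RPL22L1 and RPL7L1 fell, where 22.1% of all tested genes did, and the median of the 8 was -0.020. Whether so short a list differed from all tested genes was not tested. Apart from RPS27L the names of these paralogues were added after their values were seen.

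The paralogues of RPS27 and RPL22 moved against their partners. RPS27L, a p53-responsive gene whose product can take the place of RPS27, had 543, 551 and 560 counts in OV3/SCR and 745, 820 and 849 in OV3/COX1KD (0.58, SE 0.0554, edgeR FDR 2.8e-08), while RPS27 fell by 0.23 on the log2 scale. RPL22 binds RNA and is known to repress RPL22L1 in mice, and this pair was picked after its values were seen. RPL22 had 14890, 14392 and 14248 counts in OV3/SCR and 20387, 20748 and 22217 in OV3/COX1KD (0.57, SE 0.0272, edgeR FDR 7.3e-13). RPL22L1 had 898, 830 and 944 counts in OV3/SCR and 579, 626 and 681 in OV3/COX1KD (-0.47, SE 0.0588, edgeR FDR 1.0e-06). In none of these genes did the groups overlap.

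Most other RNAs known to carry a TOP motif rose as well. Of 23 tested, 4 of them also in the list of ribosomal genes outside the choice by symbol, 19 rose (82.6%, against 25.8% of all tested genes) with a list median of 0.31. EIF3E, a subunit of an initiation factor, rose by 0.73, and TPT1, the translationally controlled tumour protein, by 0.68. EEF1A1, the elongation factor that brings tRNA to the ribosome, rose by 0.64, PABPC1, the poly(A)-binding protein, by 0.64, and EIF3H by 0.58. Neighbours of these genes along the chromosome were not examined, and the part of position in their rises was not tested. SNHG1, a snoRNA host transcript that is spliced but not translated into a stable protein, had 12319, 11815 and 12126 counts in OV3/SCR and 6773, 7069 and 7203 in OV3/COX1KD (-0.75, SE 0.0298, edgeR FDR 4.7e-14). GAS5, a transcript of the same kind that is named because it was the other fall of this list, had 8342, 8488 and 8415 counts in OV3/SCR and 6607, 6929 and 7209 in OV3/COX1KD (-0.25, SE 0.0305, edgeR FDR 7.0e-07). A noncoding member of the list outside the rule for names, EPB41L4A-AS1, rose by 0.31 (edgeR FDR 0.00146), so the noncoding members did not share a direction.

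Genes that assemble ribosomes were lower more often than higher. Of 53 ribosome biogenesis factors 28 fell (52.8%, against 22.1% of all tested genes) and 5 rose (9.43%, against 25.8%), with a median of -0.18. NMD3, the adaptor that takes the large subunit out of the nucleus, had 4659, 4261 and 4541 counts in OV3/SCR and 2166, 2174 and 2421 in OV3/COX1KD (-0.96, SE 0.0366, edgeR FDR 2.7e-14). RRP12, needed to mature and export both subunits, fell by 0.53 on the log2 scale. The rises, named after their values were seen, were small, in NHP2 (0.22), NOB1 (0.21), FBL (0.18), RPF2 (0.13) and NPM1 (0.12).

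Mitochondrial ribosomal protein genes were split. Of 75 tested 27 rose (36.0%, against 25.8% of all tested genes) and 11 fell (14.7%, against 22.1%), with a median of 0.080, and their share of all counts was 0.489% ± 0.00880 in OV3/SCR and 0.486% ± 0.00257 in OV3/COX1KD (SD, n = 3). MRPL38 had the one change beyond 0.5, with 135, 137 and 125 counts in OV3/SCR and 79, 71 and 77 in OV3/COX1KD (-0.77, SE 0.122, edgeR FDR 2.0e-05).

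Among 22 genes that regulate TOP mRNAs or ribosomal RNA synthesis, DEPTOR and MAF1 rose (9.09%, against 25.8% of all tested genes) and 6 fell (27.3%, against 22.1%). DEPTOR, a protein that binds and inhibits mTOR, had 173, 181 and 141 counts in OV3/SCR and 537, 500 and 542 in OV3/COX1KD (1.70, SE 0.0819, edgeR FDR 8.6e-13), and MAF1, a repressor of RNA polymerase III that is named as the other rise, was up by 0.31. TAF1C, part of the factor that places RNA polymerase I on the ribosomal RNA promoter, fell by 0.53 on the log2 scale. The other falls, named after their values were seen, were TAF1D (-0.41), LARP4 (-0.34), RPS6KB2 (-0.22), RRN3 (-0.22) and TSC2 (-0.18), the last a core inhibitor of the mTOR pathway. The 5 regulators named by the rule did not pass the test. LARP1 had a log2 fold change of 0.064, MTOR of -0.13 (edgeR FDR 0.0157), RPS6KB1 of 0.094, EIF4EBP1 of -0.030 and MYC of 0.063. These are transcript levels and hold no measure of kinase activity or translation. Neighbours of the regulators along the chromosome were not examined, those of DEPTOR and MAF1 included, and the part of position was not tested.

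**Figure D5:**
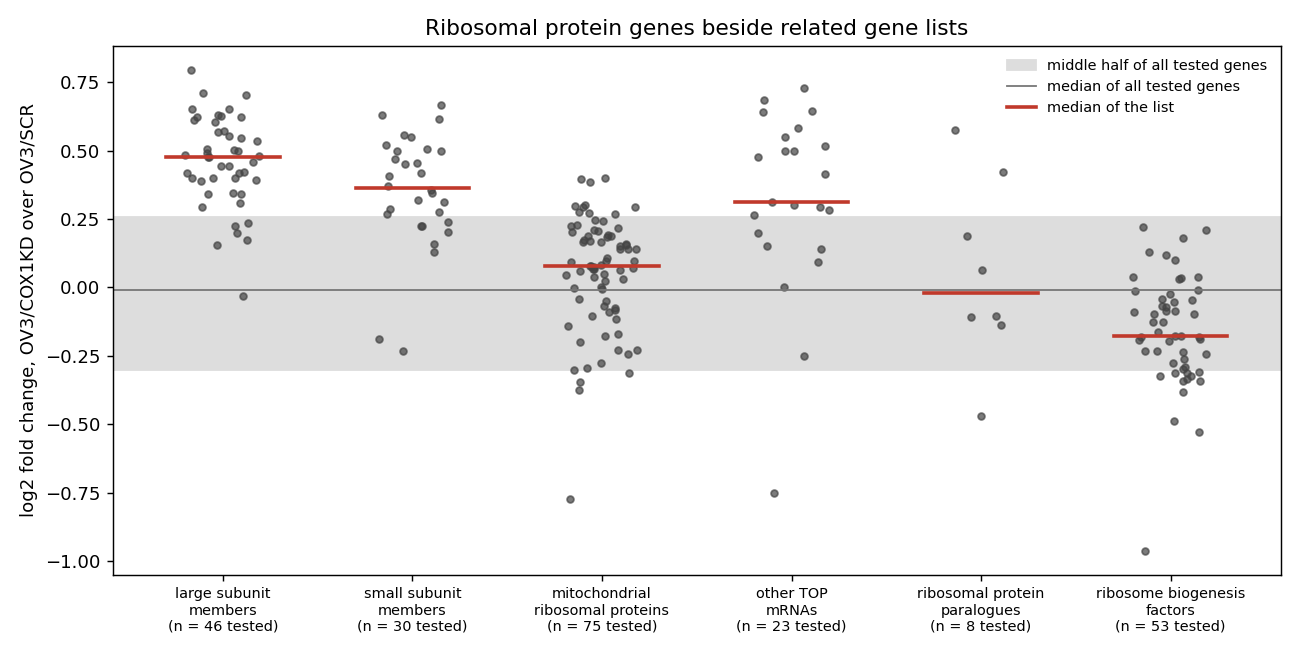
Log2 fold change (OV3/COX1KD over OV3/SCR) of each tested gene in 6 groups, with the group median as a red line, the median of all tested genes as a grey line (-0.0087) and the grey band between their quartiles (-0.30 to 0.26). Both subunits (medians 0.48 and 0.36) and the other TOP mRNAs (0.31) lie mostly above the band, the mitochondrial ribosomal proteins (0.080) mostly within it, and the ribosome biogenesis factors (-0.18) in its lower part.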

How the data were processed

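RNA-seq libraries from 3 populations each of OV3/SCR and OV3/COX1KD cells were prepared from total RNA with a TruSeq kit. The authors aligned reads to hg19 (GRCh37) with TopHat2 2.0 and counted them per gene with HTSeq, and the deposited values are raw counts without normalization. The annotation and strand setting are not given in the sources used here, so antisense and overlapping genes may share reads. Columns were mapped to samples by label. The ribosomal protein genes and all other lists were chosen with earlier results of these data known.

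The test was edgeR 4.0.16's quasi-likelihood test in R 4.3.3 (TMM, filterByExpr, glmQLFit, glmQLFTest, group as the only factor, Benjamini-Hochberg adjustment over 17309 genes, calls at FDR under 0.01). The standard error was the size of the log2 fold change divided by the square root of F. The common dispersion gave a biological coefficient of variation of 3.21%. Library pairs of a line gave a chi-square of 1.82 to 6.40 per degree of freedom, more than sampling noise, so each was counted as its own replicate. Lists were described by counts and medians without a set test. The genes named were the exceptions, the 6 largest and 6 smallest rises, the 5 highest and 5 lowest levels per transcript length, PTGS1, near-identical partners, 5 regulators, and from other lists up to 6 genes beyond 0.5, and other names were added after their values were seen. Some genes that this rule names are not reported here.

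Coordinates, transcript lengths, exon overlap and neighbours came from GENCODE 44 lifted to GRCh37, in which 33557 of 34811 genes had an entry, and repeated 50-base windows from the GRCh37 sequence. Neighbours were tested genes outside the ribosomal protein genes with an average log2 CPM of at least 1. The transcript was the shortest one holding the full coding length of the canonical transcript. Start sites came from RefSeq on GRCh38.p14, and no coordinates were carried between builds. Alternatives were other scalings and filters, DESeq2 1.42.0, offsets for GC content and length, a replicate block, and leaving out each library. On data simulated from these libraries for 16979 genes, edgeR recovered 36 of 66 genes changed by 0.3, 40 of 66 changed by 0.5 and 56 of 66 changed by 1 on the log2 scale, and called 3 of 16781 unchanged genes.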

Additional observations from a re-analysis of the deposited data

How the results depend on the processing

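Results were recomputed under 16 alternatives. The count of ribosomal protein genes that rose was 70 with library totals for scaling and stayed within 1.5 times of 72 throughout, and RPS27 and RPS26 were lower in all 16. With library totals, 14 genes rose by more than 0.5 (26 with TMM), the median of the ribosomal protein genes was 0.36 and that of all tested genes -0.087, and RPL19 and RPS21 lost their calls. The medians of the ribosomal protein genes and of all tested genes were 0.47 and -0.029 with no filter, 0.39 and -0.040 with GC and length offsets, and 0.38 and -0.040 with these offsets and the replicate block, and at least 10 counts in every library gave 0.43 for the ribosomal protein genes. Leaving out 1 library at a time gave 72 higher and 2 lower each time, 24 to 30 rising by more than 0.5, and medians of 0.43 to 0.45. Over these fits RPL17 ranged from -0.061 to 0.016 (without OV3/COX1KD replicate 1), without passing the test. The labels speak of replicate pairs without saying what a pair shares, and libraries with the same number deviated together with correlations of -0.0071, 0.049 and 0.034 across genes, so the numbers were not taken as pairs. With the replicate block 72 genes were higher, 2 lower and 26 higher by more than 0.5, and among all tested genes 4437 were higher and 3796 lower. The causes of these shifts were not tested. Each line is 1 clone.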
